A study of Mus musculus with 8 samples.

Results

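Liver gene expression was compared between 2 weeks and 1 week of recovery from CCl4 (carbon tetrachloride, a liver toxin). The arrays were those labelled CCl4, 4 of the 8 in the series, and they formed a pair of matched comparisons, one within each injected oligonucleotide. All livers came from male mice given the agent for 5 weeks to induce fibrosis. The CCl4_2w_NC sample came from liver taken after a further 2 weeks in which a negative control nucleotide (NC) was injected every 3 days, and the CCl4_2w_miR-29a sample after 2 weeks of miR-29a injected on the same schedule. The CCl4_1w_NC and CCl4_1w_miR-29a samples were taken after 1 week of the same injections. The other 4 arrays were the same combinations after TAA, the labels' name for the other fibrosis agent, and serve below only to show where the CCl4 time course differed. The design text counts each combination as n = 1, and nothing says if an array holds RNA of 1 mouse or of several, so p-values measure only the spread between these samples. The labels give no animals without fibrosis, no age or strain, and no time of day, and both weeks of CCl4 received an injected oligonucleotide.

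CCl4 is turned into a reactive radical by a cytochrome P450 of the pericentral hepatocytes and kills those cells. With repeated dosing, stellate cells become myofibroblasts that deposit fibrillar collagen, and monocyte-derived macrophages enter the scar. Once dosing stops, myofibroblasts are lost, macrophages and proteases clear matrix, and hepatocytes regain their metabolic programme, whose sex-biased part is driven by growth hormone acting through the transcription factor STAT5.

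The injected oligonucleotide was present at both weeks and is named in the labels without its sequence. For orientation, the RefSeq mature mouse miR-29a-3p (GRCm38.p6, chr6:31062673-31062694, minus strand) is shown with its seed, bases 2 to 8, in capitals, since the seed is the part that pairs with collagen messenger RNAs.
miR-29a-3p: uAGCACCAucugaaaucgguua

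Levels are given as log2 of the processed signal relative to the array's 75th percentile (0 is the 75th percentile, and 1 unit is a 2-fold step), and they set no gene's level against another's. Between 45.4% and 48.4% of the 59305 spots on a CCl4 array were well above background, and no spot was saturated. All 7 hepatocyte markers were well above background on all 4 arrays, and their summed level was 13.08 and 13.02 at 2 weeks (NC, miR-29a) against 13.03 and 13.14 at 1 week. Of markers of neighbouring tissues, 0 of 4 for skeletal muscle, 1 of 5 for adipose tissue (Fabp4) and 2 of 8 for pancreas (Amy2a5 and Ctrb1) were above background on all 4 arrays. The pancreatic enzyme genes Cpa1, Cpb1 and Pnlip were above background on the CCl4 1-week miR-29a array alone, Cpa1 at −4.42 and −5.33 at 2 weeks (NC, miR-29a) against −5.46 and −1.30 at 1 week. The summed pancreatic level was 3.49 and 3.36 at 2 weeks against 3.96 and 3.98 at 1 week, and its part in the week differences was not tested. The 6 mesothelial markers stood apart on 1 array: their summed level was 0.52 and 1.44 at 2 weeks (NC, miR-29a), against 3.83 and 1.13 at 1 week, so that the CCl4 1-week NC array was high. Msln, the mesothelial surface protein mesothelin, was at −0.34 and 0.80 at 2 weeks and at 3.28 and 0.34 at 1 week.

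Of 19069 features (the brightest probe of each gene name, kept where 2 or more of the 4 arrays had it well above background), 564 (2.96%) were over 2-fold higher at 2 weeks within both oligonucleotides, and 125 (0.656%) were over 2-fold lower within both. The matched differences share no array. Single differences passed 2-fold more often: 937 features were higher and 588 lower in the NC pair, and 1122 were higher and 553 lower in the miR-29a pair. Both differences were above 0 for 6079 features (31.9%) and below 0 for 7426 (38.9%), and 29 and 44 features passed 2-fold in opposite directions. Across genes, which are not independent replicates and share the arrays, the differences of the pairs had a correlation of 0.50. The threshold kept 1509 probes that were well above background on exactly 2 arrays, and left out 2579 that were so on exactly 1.

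**Figure D1:**
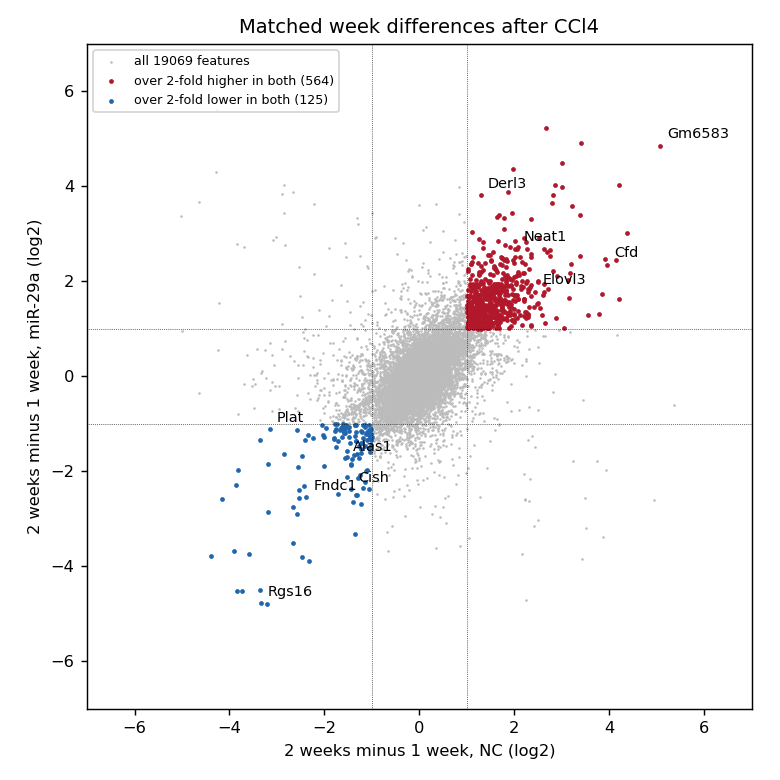
Each point is 1 feature, with the 2-week minus 1-week difference (log2) in the NC pair on the x axis and in the miR-29a pair on the y axis. Red points (564) were over 2-fold higher at 2 weeks in both pairs and blue points (125) over 2-fold lower in both, and dotted lines mark 2-fold.

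In limma's fit of week and oligonucleotide on the 4 arrays, 0 features (0%) passed an adjusted p of 0.05, with 1 residual degree of freedom and a smallest adjusted p of 0.0969. With all 8 arrays in the fit limma called 190 features, 161 higher and 29 lower. At an unadjusted p under 0.05 there were 4428 features (23.2%), 2215 higher and 2213 lower. The differences that follow are therefore values, given for the main genes as a mean with the SD of the 2 matched differences. An exact permutation test of 2 arrays against 2 cannot go below 0.333 (two-sided). With normexp background correction 121 features were higher and 21 lower in both pairs. The balance of the directions depended on scaling. With each array set to its median, the median feature moved to −0.19 (NC) and −0.30 (miR-29a), and 364 features were higher and 279 lower, which made 56.6% of the agreeing features higher, against 81.9% at the 75th percentile, where the median feature was at −0.02 and −0.04.

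Features without a RefSeq match made up most of the agreeing higher set, and whether these code for protein is not known. Of the 564, 123 were protein coding (21.8%), 60 were noncoding RNAs or pseudogenes and 381 had no RefSeq match (67.6%), whereas 68.6% of all features were protein coding. By class, 0.940% of protein-coding features, 8.50% of noncoding RNAs and pseudogenes, and 7.22% of unmatched features were higher in both pairs. In the lower direction the shares were 0.573%, 0.567% and 0.872%. Of the unmatched features, 106 with a RIKEN clone name were higher and 0 were lower. Low signal went with both directions: 190 of the 564 higher features (33.7%) were below background on both 1-week arrays, and 43 of the 125 lower features (34.4%) on both 2-week arrays, against 2.81% of all features below background on both arrays of their dimmer week. In the brightest of 4 equal brightness classes few features were higher. They were 5 of 130 noncoding RNAs and pseudogenes (3.85%), 10 of 3462 protein-coding features (0.289%) and 8 of 1176 unmatched ones (0.680%). What sets the difference between classes was not tested.

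**Figure D2:**
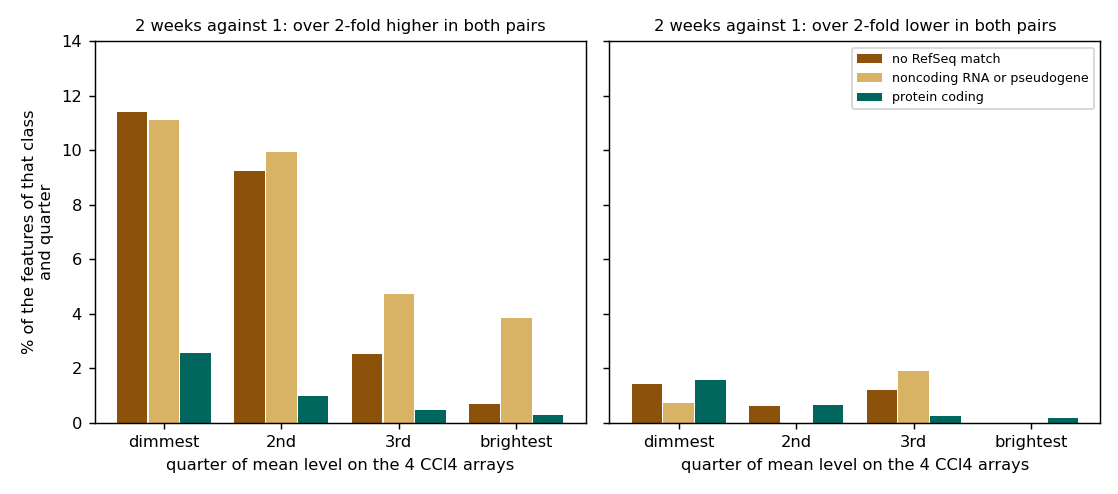
Bars give the percentage of features over 2-fold higher (left) or lower (right) at 2 weeks in both pairs, by annotation class and by 4 equal classes of mean level on the 4 CCl4 arrays. In the higher direction, noncoding RNAs and pseudogenes exceeded protein-coding features in each brightness class. In the brightest this was 3.85% (5 of 130 features) against 0.289% (10 of 3462).

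Several long nuclear RNAs were in the higher set. Neat1, the architectural RNA of nuclear paraspeckles, was at 5.13 and 5.59 at 2 weeks (NC, miR-29a), against 3.08 and 2.90 at 1 week. The weeks did not overlap, and the mean difference was 2.37 ± 0.45 log2 (SD, n = 2 pairs), or 5.17-fold; its probe lies at mm9 chr19:5842564-5842623. Meg3, an imprinted RNA of the maternal chromosome, was at 2.20 and 2.24 at 2 weeks and at −0.28 and 0.71 at 1 week. Malat1, an abundant RNA of nuclear speckles, was at 0.48 and 0.59 against −0.67 and −0.995. Kcnq1ot1, the imprinted antisense RNA of Kcnq1, differed by 1.34 (NC) and 1.72 (miR-29a), the small nucleolar host RNA Snhg11 by 2.75 and 2.54 (its 1-week NC array being below background), and Mir17hg, the host RNA of the miR-17 cluster, by a mean of 1.47 ± 0.05 (SD, n = 2 pairs). On the TAA arrays Neat1 was at 5.76 and 5.599 at 2 weeks (NC, miR-29a) and at 5.88 and 6.62 at 1 week. Malat1 was there at 0.95 and 0.58 against 0.69 and 0.43, and Mir17hg at 0.35 and −0.04 against 0.24 and 0.18. For Neat1, Malat1, Mir17hg, Kcnq1ot1 and Snhg11, both CCl4 1-week arrays lay below every other array of the series. What set these 1-week levels apart was not tested. For all 6 RNAs, each CCl4 2-week array was above each CCl4 1-week array. All 6 were taken from the set higher in both pairs, so this is no separate support. The same holds wherever the weeks of an agreeing gene are said not to overlap. Among coding genes, the splicing-associated factor Pnisr (1.02 and 1.09) and the RNA helicase Ddx17 (1.04 and 1.01) were in the same set. Another probe gave a mean difference of 0.68 for Kcnq1ot1 and 0.62 for Pnisr, both under 2-fold, and of 1.75 for Ddx17.

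**Figure D3:**
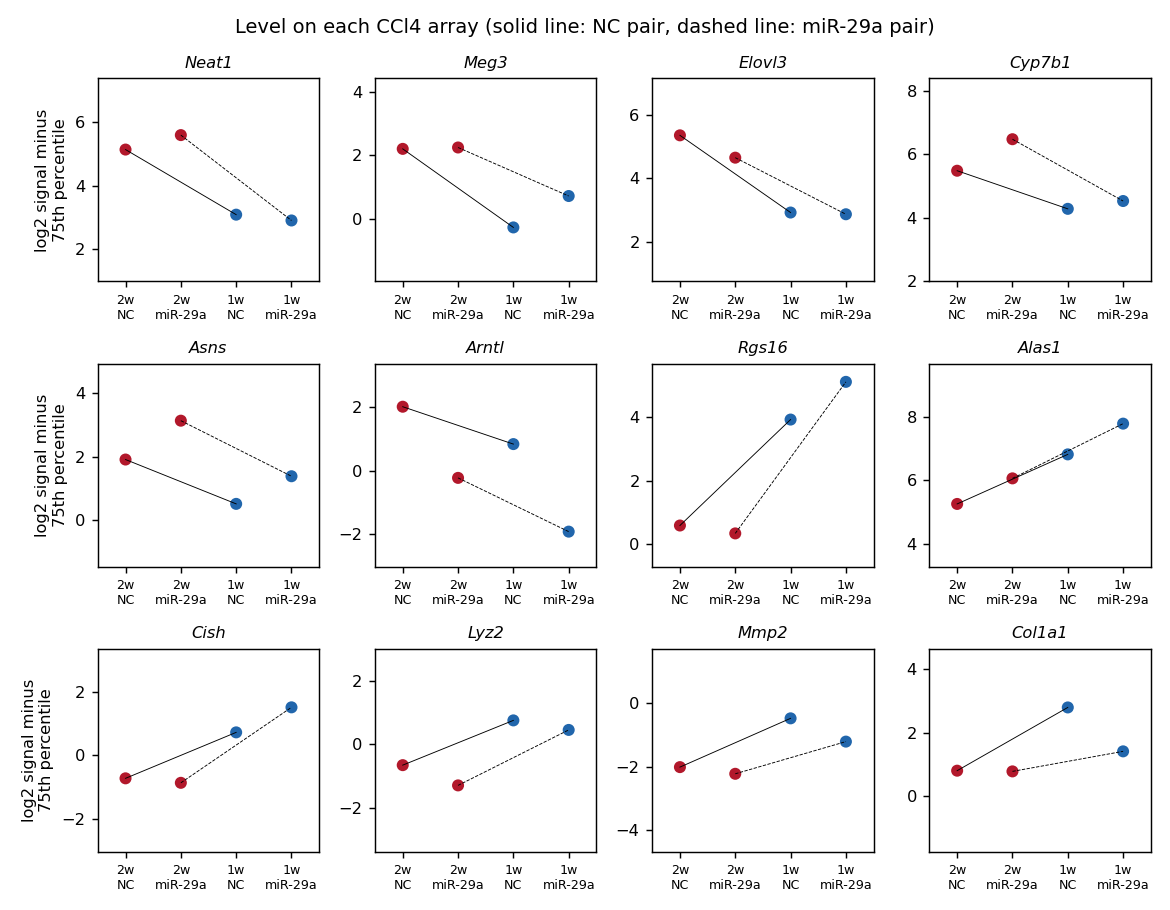
Level (log2 signal minus the array's 75th percentile) of 12 genes on each of the 4 CCl4 arrays, with 2 weeks in red and 1 week in blue and lines joining the arrays of 1 oligonucleotide. All panels have the same span on the y axis; Neat1 lay between 5.13 and 5.59 at 2 weeks and between 2.90 and 3.08 at 1 week.

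Many large agreeing differences were in genes near background on 1 side. Gm6583, a predicted gene, was at −0.66 and −0.82 at 2 weeks (NC, miR-29a) and below background on both 1-week arrays, at least 6.78-fold higher, and Rab26, a small GTPase of secretory vesicles, was at least 3.14-fold higher. Extl1, a glycosyltransferase related to the exostosins, differed by 2.26 and 2.00, with its 1-week NC array below background. In the other direction Lrr1, an adaptor of a ubiquitin ligase, was below background on both 2-week arrays and at −2.04 and −1.13 at 1 week, at least 5.30-fold lower.

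Scar collagens were lower at 2 weeks, more so in the NC pair. Col1a1, the α1 chain of type I collagen, was at 0.80 and 0.78 at 2 weeks (NC, miR-29a), against 2.80 and 1.41 at 1 week. The 2-week arrays lay together and the 1-week arrays apart, so the difference was −1.99 in the NC pair and −0.63 in the miR-29a pair. Col1a2 was at 2.80 and 2.80 at 2 weeks against 4.28 and 3.41 at 1 week, and Col3a1, the type III chain, at 2.51 and 2.61 against 3.96 and 3.196. None of these passed 2-fold in both pairs, although the weeks did not overlap in any. Over the 7 measured fibrillar collagen genes the median difference was −1.45 (NC) and −0.32 (miR-29a), against −0.02 and −0.04 over all features, and 4 were below 0 in both pairs. The exception past 2-fold was Col27a1, a fibrillar collagen of cartilage, at −0.34 and −0.42 at 2 weeks against −1.87 and −2.32 at 1 week. The NC differences of matrix genes stand beside the mesothelial list, whose 12 measured members had a median of −3.15 in the NC pair and 0.14 in the miR-29a pair; the part of mesothelium in them was not tested. In bulk liver, fewer cells of a type and less RNA per cell cannot be told apart.

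Other matrix lists were mixed. The 9 measured collagens outside the fibrillar and basement membrane lists had medians of −0.75 (NC) and 0.03 (miR-29a), and of 22 collagen processing enzymes 10 (45.5%) were below 0 in both pairs. Of 29 measured proteoglycans and matrix glycoproteins, 21 (72.4%) were below 0 in both pairs, against 38.9% of all features, and 0 were above 0 in both. Their median was −0.86 (NC) and −0.34 (miR-29a). Mfap4, a microfibril protein of elastic fibres, was at −0.80 and −0.45 at 2 weeks and at 0.93 and 0.55 at 1 week. Ogn, the small leucine-rich proteoglycan osteoglycin, differed by −1.76 and −0.57, Mgp (matrix Gla protein) by −1.76 and −0.70, and Ltbp2, of the latent TGF-beta binding protein family, by −2.35 and −0.35. The genes past 2-fold in both pairs lay outside that list. Dpt (dermatopontin, which binds decorin and collagen) was at −2.30 and −2.38 at 2 weeks against −0.51 and −1.07 at 1 week. Fndc1, a fibronectin type III domain protein, was well above background on both 1-week arrays and on neither 2-week array, which makes it at least 3.58-fold lower. Here and below, "at least" sets the mean level of the bright week against, for each dim array, the higher of its lowest well-measured signal and the probe's own.

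Among 21 measured matrix proteases and inhibitors, 11 (52.4%) were below 0 in both pairs, against 38.9% of all features. Of the 21, 2 were over 2-fold lower in both pairs and 0 were higher. The shares over protein-coding features were 0.573% lower and 0.940% higher, so the 0 says nothing of the list. Mmp2, the gelatinase A made by stellate cells, was at −2.01 and −2.22 at 2 weeks (NC, miR-29a) against −0.47 and −1.20 at 1 week, a mean difference of −1.28 ± 0.37 (SD, n = 2 pairs; mm9 chr8:95376840-95376899). Plat, tissue plasminogen activator, was below background on both 2-week arrays and at least 2.61-fold lower. Timp1, the inhibitor of matrix metalloproteases that marks active fibrosis, was at −2.83 and −2.15 at 2 weeks and −0.59 and −2.54 at 1 week; only the 1-week NC array was high, and the pairs gave −2.24 and 0.39. The smooth muscle actin gene Acta2, which marks myofibroblasts, was at −0.93 and −0.99 at 2 weeks against −0.07 and 1.22 at 1 week. Its larger difference was in the miR-29a pair (−2.21, against −0.87 for NC), the reverse of the collagens. Of 20 measured myofibroblast and contractile genes, 14 (70.0%) were below 0 in both pairs, against 38.9% of all features.

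Signals to stellate cells were lower by small amounts. Of 28 measured genes of TGF-beta and PDGF signalling 21 (75%) were below 0 in both pairs, against 38.9% of all features, and 3 above 0, with medians of −0.33 (NC) and −0.28 (miR-29a). The ligand gene Tgfb3 differed by −2.07 and −0.29, Ccn2 (connective tissue growth factor, a TGF-beta target) by −2.29 and −0.47, and Bmp6, an iron-responsive ligand of liver endothelium, by −0.78 and −1.12. Tgfb1 was at −2.03 and −2.46 at 2 weeks against −1.78 and −1.49 at 1 week. Receptor Pdgfrb was close to level, with differences of −0.27 and 0.21. There were 32 measured genes reported as miR-29 targets, which overlap the collagen lists. Of these 17 (53.1%) were below 0 in both pairs, against 38.9% of all features, and 9 above 0. Past 2-fold in both pairs 1 was lower (Mmp2) and 1 higher (Dnmt3b), against 0.573% and 0.940% of protein-coding features. Dnmt3b, a de novo DNA methyltransferase, was at 1.31 and 0.23 at 2 weeks against −0.31 and −1.01 at 1 week.

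A few macrophage genes were over 2-fold lower at 2 weeks within both oligonucleotides. Lyz2, the lysozyme of macrophages and neutrophils, was at −0.66 and −1.30 at 2 weeks (NC, miR-29a) against 0.75 and 0.45 at 1 week, a mean difference of −1.58 ± 0.24 (SD, n = 2 pairs; mm9 chr10:116719175-116719234). Gpnmb, a glycoprotein of lipid-laden and scar-associated macrophages, was at −1.64 and −1.62 against −0.42 and −0.22. Cd63, a tetraspanin of lysosomes and exosomes, was at 3.08 and 3.09 against 4.43 and 4.10. In each of the 3 genes the weeks did not overlap and the pairs differed by less than the week difference. Of 24 measured genes of infiltrating macrophages, 16 (66.7%) were below 0 in both pairs, against 38.9% of all features, and 4 above 0. Of the 24, 2 were over 2-fold lower in both pairs, where 0.656% of all features were. Their medians were −0.75 and −0.33. Of 17 resident Kupffer cell genes 11 (64.7%) were below 0 in both pairs, a share close to that of the infiltrating macrophage genes. None of the 17 passed 2-fold in both pairs, which at 0.573% of protein-coding features lower says nothing of the list. Their median was −0.17 (NC) and −0.96 (miR-29a). Adgre1, which encodes a macrophage surface receptor, was at 0.54 and −0.31 at 2 weeks against 0.98 and 1.01 at 1 week, and the complement gene C1qa differed by −0.47 and −1.44, while Clec4f, a lectin of Kupffer cells, differed by 0.16 and −0.63. The summed level of the 6 Kupffer markers was 5.81 and 5.16 at 2 weeks against 5.64 and 6.02 at 1 week, all 6 being above background on all 4 arrays.

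Sinusoidal endothelium and inflammation gave single genes. Lyve1 is a hyaluronan receptor of liver sinusoidal and lymphatic endothelium. It was at −0.72 and −1.38 at 2 weeks against 0.50 and 0.02 at 1 week. Of 29 measured endothelial genes it was the only 1 past 2-fold in both pairs, where 0.656% of all features were lower. Of the 29, 9 (31.0%) were below 0 in both pairs, against 38.9% of all features, and 17 had opposite signs in the pairs. The median over that list was 0.20 (NC) and −0.55 (miR-29a). Serpina3n, an acute-phase serine protease inhibitor, was at 2.94 and 2.84 at 2 weeks and 3.95 and 4.12 at 1 week. It was the only 1 of 29 acute-phase genes past 2-fold in both, where again 0.656% of all features were lower. Of the 29, 19 (65.5%) were below 0 in both, against 38.9% of all features. Krt23, a keratin induced in injured liver, was at −0.76 and −1.03 against 0.62 and 0.62. Fgl2, a prothrombinase of macrophages and endothelium, was below background on both 2-week arrays and at least 3.41-fold lower.

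**Figure D4:**
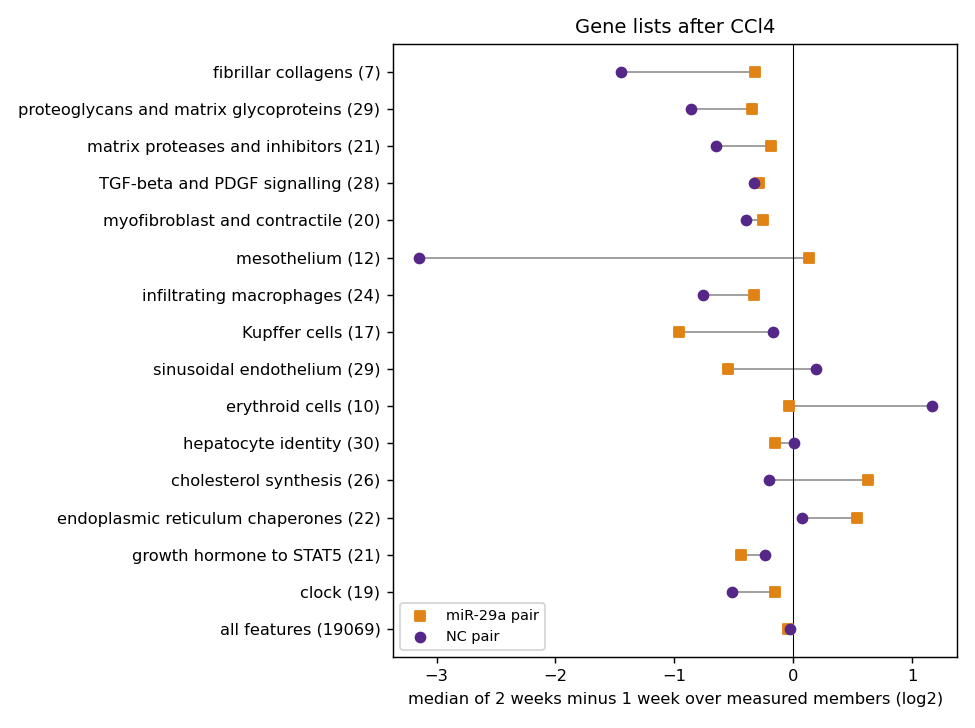
Each row is a gene list with the number of measured members, and the markers give the median 2-week minus 1-week difference (log2) over those members in the miR-29a pair (orange squares) and the NC pair (purple circles). Fibrillar collagens, matrix glycoproteins, TGF-beta and PDGF signalling and macrophages lie left of 0 in both pairs, whereas the mesothelium lies at 0.14 for miR-29a and −3.15 for NC.

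Feedback genes of the growth hormone pathway were lower at 2 weeks. Growth hormone activates STAT5, which induces Cish and Socs2, both inhibitors of the same receptor. Cish was at −0.72 and −0.86 at 2 weeks (NC, miR-29a) against 0.73 and 1.52 at 1 week, a mean difference of −1.91 ± 0.66 (SD, n = 2 pairs; mm9 chr9:107204196-107204255). Socs2 was at −0.30 and −0.11 against 1.06 and 1.16, a mean difference of −1.31 ± 0.06. The weeks did not overlap for either gene. The Cish start is shown because 2 of the motif bound by STAT5, TTCNNNGAA (the same on both strands, and in 8.30% of 32851 RefSeq promoter windows of 250 bases before to 50 after a start), stand there side by side. The stretch covers 110 bases before the RefSeq start and 20 after it (GRCm38.p6, chr9:107296549-107296678, plus strand), with the matches in capitals.
Cish: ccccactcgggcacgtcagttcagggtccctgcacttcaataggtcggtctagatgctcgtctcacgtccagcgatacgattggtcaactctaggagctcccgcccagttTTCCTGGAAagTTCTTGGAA
A match is a description of the letters and not a measured binding site. In the list of 21 growth hormone and STAT5 genes, 20 have a promoter window and 4 hold the motif, Cish among them. Of the other 19 members 1, Cux2, agreed past 2-fold, in the opposite direction. Cux2, a female-biased transcription factor that STAT5 represses in male liver, was below background on both 1-week arrays and well above it on both 2-week arrays, and was at least 1.74-fold higher. Over the list the median was −0.24 (NC) and −0.44 (miR-29a), and 12 of 21 (57.1%) were below 0 in both pairs, against 38.9% of all features. Igf1, the main hepatic product of growth hormone action, was level at 7.21 and 7.20 at 2 weeks against 7.17 and 7.16 at 1 week.

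Sex-biased hepatocyte genes downstream of that pathway were among the larger higher values. Elovl3, a male-biased elongase of very long fatty acids, was at 5.35 and 4.65 at 2 weeks (NC, miR-29a) against 2.92 and 2.87 at 1 week, a mean difference of 2.11 ± 0.46, or 4.31-fold (SD, n = 2 pairs; mm9 chr19:46209762-46209821). Cyp7b1, the male-biased oxysterol 7α-hydroxylase of the acidic bile acid route, was at 5.49 and 6.48 against 4.29 and 4.53, a mean difference of 1.57 ± 0.53. Neither gene's weeks overlapped. Hsd3b5, another male-biased steroid enzyme, was at 5.03 and 5.82 at 2 weeks and 3.69 and 5.16 at 1 week, with 2-fold passed in the NC pair alone. The direction was not shared by the lists. Of 29 measured male-predominant genes 12 (41.4%) were above 0 in both pairs, against 31.9% of all features, and 2 were higher past 2-fold. Of 19 female-predominant genes 2 were higher past 2-fold (Cux2 and the organic anion transporter family gene Slc22a26, at least 2.24-fold). Of these 19, 5 were above 0 in both pairs and 9 (47.4%) below 0, against 38.9% of all features. The share higher past 2-fold was 2.96% over all features and 0.940% over protein-coding ones. The major urinary protein gene Mup20, a male-biased secreted product, was at 10.30 and 10.24 at 2 weeks against 10.28 and 10.47 at 1 week.

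Among 19 measured clock genes 1 was over 2-fold higher and 1 over 2-fold lower in both pairs, against 0.940% and 0.573% of protein-coding features. Arntl, which encodes the clock activator BMAL1, was at 2.01 and −0.23 at 2 weeks (NC, miR-29a) against 0.83 and −1.92 at 1 week. It was over 2-fold higher in both pairs (1.18 and 1.69), yet the 2-week miR-29a array lay below the 1-week NC array, so the weeks overlapped. Usp2, a ubiquitin-specific protease whose liver level cycles daily, was lower in both, at −0.68 and 2.04 at 2 weeks and 1.34 and 3.28 at 1 week, and its weeks overlapped as well. Dbp, an output transcription factor of the clock, was at 3.03 and 6.15 at 2 weeks against 5.59 and 6.88 at 1 week. Per1, a clock repressor, differed by −1.59 and −0.43, and Ciart, another repressor, by −3.83 and −0.80, with Ciart below background on the 2-week NC array. Over 19 measured clock genes the median was −0.51 (NC) and −0.15 (miR-29a), with 10 (52.6%) below 0 in both, against 38.9% of all features, and 5 above 0 in both. With normexp background correction the list's median over both pairs was −0.036. The promoters of Ciart and Per1 are shown since CLOCK and BMAL1 bind the E-box CACGTG, which reads the same on both strands and occurs in 7.15% of the 32851 windows. The Ciart stretch is the 130 bases before its start (GRCm38.p6, chr3:95882229-95882358, minus strand) and holds 3 E-boxes, beginning 116, 58 and 44 bases before the start. The Per1 stretch runs from 200 to 71 bases before a RefSeq start (chr11:69098749-69098878, plus strand) and holds 1. E-boxes are in capitals.
Ciart: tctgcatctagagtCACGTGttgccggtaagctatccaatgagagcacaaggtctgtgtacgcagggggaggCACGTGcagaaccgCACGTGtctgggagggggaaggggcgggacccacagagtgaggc
Per1: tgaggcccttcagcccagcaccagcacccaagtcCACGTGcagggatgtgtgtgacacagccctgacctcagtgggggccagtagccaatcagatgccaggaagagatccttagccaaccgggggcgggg
Of 22 clock genes in the list 18 have a promoter window, and 5 of these hold an E-box. The hour at which livers were taken is not given, so week and hour cannot be told apart for these genes.

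Several metabolic genes of hepatocytes were lower at 2 weeks in both pairs. Rgs16, a regulator of G protein signalling that follows feeding in liver, had the largest lower mean difference among agreeing genes above background on all 4 arrays: 0.59 and 0.34 at 2 weeks (NC, miR-29a) against 3.93 and 5.12 at 1 week, a mean of −4.06 ± 1.02 (SD, n = 2 pairs; mm9 chr1:155592244-155592303). Alas1, the rate-limiting enzyme of heme synthesis in liver and itself induced by fasting, was at 5.25 and 6.06 against 6.81 and 7.78, a mean of −1.64 ± 0.12 (mm9 chr9:106136284-106136343). Its other probe gave a mean of −0.83, the same sign but under 2-fold. Neither gene's weeks overlapped. Aldh1b1, a mitochondrial aldehyde dehydrogenase, differed by −1.23 and −1.15, the apolipoprotein gene Apoa4 by −1.02 and −1.11, and Abcb1a, a multidrug efflux pump, by −1.33 and −1.36. Slc51b, a subunit of the basolateral bile acid exporter, was at −3.26 and −4.69 against −1.99 and −3.22, with 1 of its 2-week arrays below background. Cib3, a calcium-binding protein, was at 1.65 and 2.38 against 4.50 and 4.02. Of 22 periportal genes of the urea cycle and gluconeogenesis, 15 (68.2%) were below 0 in both pairs, against 38.9% of all features, with medians of −0.29 and −0.21. Higher in both were Fitm1, a lipid droplet protein, at 0.15 and 0.71 against −2.14 and −1.07, and the transport and conjugation genes Slc22a30 (1.30 and 1.63) and Ugt1a6a (1.08 and 1.71). The Ugt1a genes share their last exons, so the isoform named rests on where its probe lies. Cfd, complement factor D (adipsin), was at −1.62 and −0.80 at 2 weeks and at −5.58 and −3.16 at 1 week, where 1 of the arrays was above background.

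Single stress genes passed 2-fold in both pairs. Asns, the asparagine synthetase induced by ATF4, was at 1.91 and 3.13 at 2 weeks (NC, miR-29a) against 0.51 and 1.38 at 1 week, a mean difference of 1.57 ± 0.25 (SD, n = 2 pairs), while the other 18 measured ATF4 genes did not agree past 2-fold and 8 of all 19 were above 0 in both. Gadd45g, a growth arrest and DNA damage gene, was at 3.22 and 3.46 against 1.75 and 1.75. Derl3, a component of endoplasmic reticulum-associated degradation, was at 0.75 and 3.202 against −0.54 and −0.61, with most of its difference in the miR-29a pair (3.82, against 1.29 for NC). Of 22 endoplasmic reticulum chaperone genes 12 (54.5%) were above 0 in both pairs, against 31.9% of all features, with medians of 0.07 (NC) and 0.53 (miR-29a). The inducible heat shock gene Hspa1a was below background on both 2-week arrays and at least 2.75-fold lower; Hspa1a and its near-identical neighbour Hspa1b may share signal.

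Some lists went in opposite directions in the pairs. Of 26 cholesterol synthesis genes 20 had opposite signs, with medians of −0.20 (NC) and 0.63 (miR-29a). Sqle, squalene epoxidase, was at 4.54 and 6.15 at 2 weeks against 4.92 and 4.52 at 1 week; the 2-week miR-29a array was above the other 3. Erythroid genes had medians of 1.17 (NC) and −0.04 (miR-29a). The globin gene Hba-a1 was at 7.85 and 7.71 at 2 weeks against 6.31 and 7.73 at 1 week, so the 1-week NC array was low. Among the mesothelial genes described above, Dmkn, an epithelial secreted protein, was at −4.39 (below background) and −2.31 at 2 weeks against 0.62 and −3.27 at 1 week.

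Main hepatocyte products were near level. Alb was at 10.99 and 10.95 at 2 weeks against 10.93 and 11.05 at 1 week. Cyp2e1, the cytochrome that activates CCl4, was at 9.996 and 9.95 against 9.94 and 10.21, and Mki67, a marker of cycling cells, at −0.99 and −1.44 against −1.01 and −1.38. Glul, the pericentral glutamine synthetase, was higher in both pairs at 6.20 and 6.79 against 5.58 and 6.02, which is under 2-fold. Of 30 hepatocyte identity genes and 25 cell cycle genes, 0 agreed past 2-fold in either direction, which at the shares of protein-coding features (0.940% higher, 0.573% lower) says nothing of either list. Of the 25 cell cycle genes 13 (52%) were below 0 in both pairs, against 38.9% of all features. The cyclin B1 gene Ccnb1 was below background on both 2-week arrays and above it on both 1-week arrays.

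The same week difference was then set against that after TAA, in 1 fit of all 8 arrays with an agent by week term (coded CCl4 minus TAA). The CCl4 difference was above the TAA difference for 698 features (3.66%) and below it for 919 (4.82%) at an adjusted p under 0.05 in limma, the smallest adjusted p being 0.0256. Of the features that agreed after CCl4, 338 of 564 higher and 66 of 125 lower were among these in the same direction. Those features were chosen for large CCl4 differences, which are part of the term. Much of this overlap was therefore built in, and it does not show a time course particular to CCl4. Over 2-fold the same way in both TAA pairs were 4 of the 564 and 2 of the 125. Over all 19069 features, 289 were higher and 139 lower past 2-fold in both TAA pairs. The TAA median over the 564 was −0.26 (NC) and −0.63 (miR-29a), and over the 125 it was 0.17 and 0.49. Over all features it was 0.12 and −0.01. Gm6583, below background on all 4 TAA arrays, gave −0.21 and −0.64, so values of that size also arise without measured signal. Leaving out any 1 CCl4 array, or either TAA 2-week array, left 0 features called, so the term rests on each of these arrays. With each array set to its median the counts were 460 above and 2712 below, with normexp background correction 1191 and 2187, and with no filter on dim probes 0 and 0. The TAA 1-week NC array stood apart for inflammation. Neutrophil genes had a TAA median of −4.51 in the NC pair and 0.34 in the miR-29a pair, and after CCl4 −0.24 and −0.29; without this array the term called 975 features above and 1009 below.

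Some matrix, macrophage and stress genes had opposite signs after the agents. Mmp2 differed by −1.54 and −1.01 after CCl4 (NC, miR-29a) and by 1.73 and 1.95 after TAA, and the term was −3.11 (limma adjusted p = 0.0295); its TAA 1-week miR-29a array was below background. Gpnmb differed by −1.23 and −1.41 after CCl4 and by 1.91 and 2.14 after TAA, with a term of −3.34 (limma adjusted p = 0.0306). On both TAA 1-week arrays Gpnmb was below background, so after TAA it was at least 3.804-fold higher at 2 weeks. Itm2a, a membrane protein of mesenchymal and T cells, gave −1.76 and −1.49 after CCl4, with its 2-week miR-29a array below background, and was at least 3.39-fold higher at 2 weeks after TAA. Dpt gave −1.80 and −1.32 after CCl4 and was at least 1.91-fold higher after TAA; both genes were below background on both TAA 1-week arrays. Asns showed the reverse, with 1.40 and 1.75 after CCl4 and −3.36 and −3.29 after TAA. Neat1 differed by −0.11 and −1.02 after TAA, and Nr1d1, the clock repressor REV-ERBα, differed by −0.82 and −0.70 after CCl4 and by 1.46 and 0.71 after TAA. Other genes went the same way after both agents. Alas1 differed by −0.90 and −2.15 after TAA, Cish by −2.60 and −3.67, Usp2 by −3.47 and −1.89, and Arntl by 3.67 and 2.88. For these 4 the term had limma adjusted p values of 0.929, 0.271, 0.323 and 0.170, which does not show that the agents acted alike. Arntl was below background on the TAA 1-week miR-29a array, so its 2.88 depends on signal at background. Rgs16 was lower in both CCl4 pairs, while its TAA pairs gave 3.62 and −2.04.

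**Figure D5:**
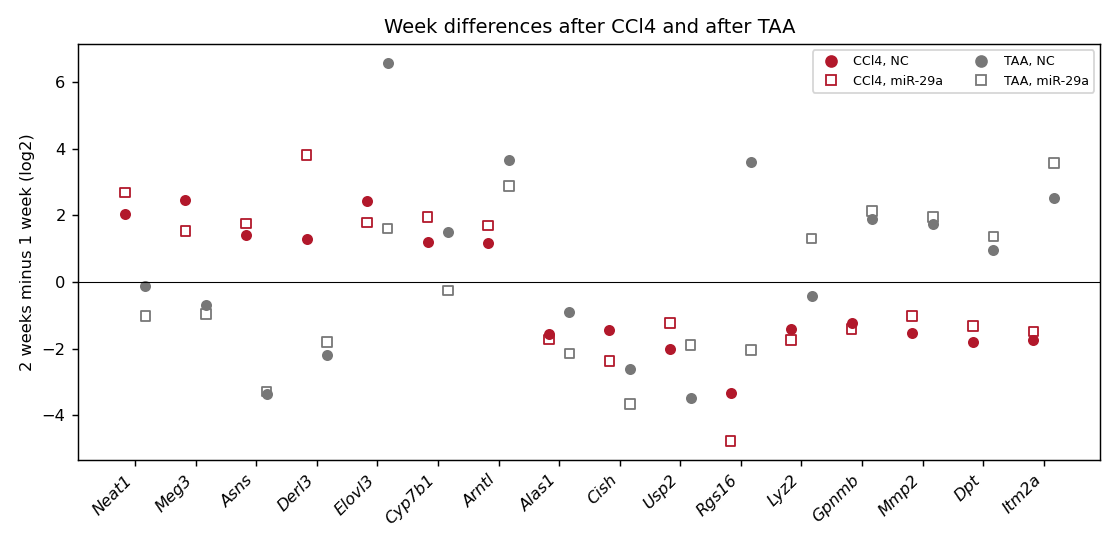
For 16 genes, the 2-week minus 1-week difference (log2) after CCl4 (red, left) and after TAA (grey, right), with circles for NC and squares for miR-29a. Asns, Mmp2, Gpnmb, Dpt and Itm2a have opposite signs after the 2 agents, while Alas1, Cish, Usp2 and Arntl have the same sign. Gpnmb, Dpt and Itm2a were below background on both TAA 1-week arrays, and Mmp2 and Arntl on the TAA 1-week miR-29a array.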

How the data were processed

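Liver RNA of 8 samples was hybridised, 1 sample per array, to Agilent 1-colour (Cy3) arrays on 1 slide, so batch and array position could not be tested as a block. The deposited scanner files hold intensity values (the processed signal, made by the authors with Agilent Feature Extraction 10.10.1.1, per the file headers) and other values, the flags for well above background and for outliers, per the file headers. The authors' deposited value table holds log2 values: set against the scanner files it equals log2 of the processed signal minus 1 constant per array, and its column medians after CCl4 were −3.86 and −3.80 at 2 weeks (NC, miR-29a) and −4.03 and −4.06 at 1 week, and after TAA −3.72 and −3.56 at 2 weeks and −3.44 and −3.46 at 1 week.

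From the intensities, log2 of the processed signal minus each array's 75th percentile was computed. Of 55681 probes, 24 were dropped as outliers and 25701 were kept because 2 or more of the 4 CCl4 arrays had them well above background, and the brightest probe per gene name gave 19069 features, of which 13793 matched RefSeq (13087 protein coding). Tests used limma 3.58.1 in R 4.3.3 with Benjamini-Hochberg adjustment over all features, tested on simulated data. The number of arrays limits the precision. Probe positions are mm9, from the arrays' design, and promoters and the miRNA are RefSeq GRCm38.p6; where probes lie in exons or UTRs was not used here.

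The members and the 53 gene lists (1217 genes, 1044 measured) were chosen with earlier results of these data known. Named genes are the 20 agreeing features per direction with the largest smaller difference, list members that agree (otherwise up to 4 with the largest mean difference), a fixed set of fibrosis and hepatocyte genes, the 10 smallest p per direction and the 10 most opposed, from which the text draws those with a known role; some are not reported here. Malat1, Kcnq1ot1, Mir17hg, Pnisr, Ddx17, Dpt, Cd63, Ciart, Per1 and Nr1d1 were chosen after their values were seen. Alternatives were other background correction, scaling, filters, fold thresholds, probe summaries, fits and arrays left out.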

Additional observations from a re-analysis of the deposited data

Results flagged for a closer look

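The week difference after CCl4 minus that after TAA passed an adjusted p of 0.05 in limma's agent by week term for the genes below; leaving out any 1 CCl4 array or either TAA 2-week array left 0 features called. Among RNAs of the nucleus and noncoding genes the term was 2.94 for Neat1, 2.84 for Meg3, 1.16 for Malat1, 2.30 for Kcnq1ot1, 1.52 for Mir17hg and 3.46 for Snhg11, and it was 1.22 for Pnisr. Among matrix and stromal genes it was −3.11 for Mmp2, −2.72 for Dpt, −2.80 for Ogn, −2.56 for Fndc1, −4.67 for Itm2a and −2.40 for Bmp6. For the macrophage gene Gpnmb it was −3.34 and for the endothelial gene Lyve1 −1.42. Among hepatocyte and stress genes it was 4.90 for Asns, −2.43 for Apoa4, −1.81 for Abcb1a, 1.52 for Ugt1a6a and −1.85 for Nr1d1. It was 5.39 for Gm6583, 3.86 for Rab26 and −3.50 for Lrr1, each below background on both arrays of 1 CCl4 week and on all 4 TAA arrays. Fndc1 was also below background on both CCl4 2-week arrays and on all 4 TAA arrays, and Itm2a, Gpnmb, Dpt and Bmp6 on both TAA 1-week arrays, so these terms depend on signal at background and are not sizes of change.

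Some differences had opposite signs in the pairs, and these were not tested. The week difference of the NC pair minus that of the miR-29a pair was −0.83 for the list median of cholesterol synthesis, 1.20 for erythroid cells, −3.29 for mesothelium and −0.78 for the collagens outside the fibrillar and basement membrane lists, and it was −5.97 for Dmkn.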

How the results depend on the processing

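Each group held 1 array, so no replicate spread exists. Counts of agreeing features were 1225 higher and 667 lower at 1.5-fold, 157 and 27 at 3-fold, 364 and 279 with median scaling, 874 and 236 with no filter on dim probes, 121 and 21 with normexp, 329 and 67 when above background on all 4 arrays, and 123 and 75 over protein-coding features alone. With an array left out 1 pair remained, and it gave 937 to 1122 higher and 553 to 588 lower. limma called 190 features with all 8 arrays, 1739 with an intensity trend, 157 with no oligonucleotide term, 2086 with normexp and 354 when above background on all 4 arrays, against 0 in the reported fit and with robust variances. The agent by week term called 460 above and 2712 below with median scaling, 1191 and 2187 with normexp, 0 and 0 with no filter and 0 and 0 without both 1-week NC arrays; with 1 array left out the counts ran from 0 to 975 and from 0 to 1009. The causes were not tested.

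Medians of the mean difference were −0.036 for clock genes with normexp, and −0.19 (mean of probes) and −0.67 (median scaling) for growth hormone to STAT5 genes; with an array left out they ran from −1.45 to −0.32 for fibrillar collagens and from −0.44 to −0.24 for growth hormone to STAT5. Signs turned with median scaling for Cyp1a2 (−0.14), Fasn (−0.16) and Mmp14 (−0.15), with normexp for Mki67 (0.0099), and with quantile normalization for Pdgfrb (0.0018) and Scd1 (0.031). With an array left out, gene differences came from a fit of week alone on the remaining arrays, unpaired and without the oligonucleotide term. They ran from −0.082 to 0.038 for Alb, −0.56 to 0.088 for Clec4f, −0.29 to 0.44 for Cyp1a2, −0.24 to 0.036 for Cyp2e1, −1.998 to 1.02 for Cyp7a1, −0.38 to 0.50 for Fasn, −4.74 to 0.11 for Ciart (Gm129 on the array), −0.25 to 0.20 for Mki67, −0.076 to 0.21 for Mmp14, −0.25 to 0.20 for Pdgfrb, −0.18 to 1.43 for Sqle and −1.90 to 0.050 for Timp1. Leaving out both 1-week NC arrays, protein-coding features alone and leaving out CCl4 arrays from the term were chosen after seeing the data. A slide block was not run, since all arrays are on 1 slide. The reported fit pairs arrays by oligonucleotide; the labels give no other replicate block.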
